A study of Mus musculus with 8 samples.

Results

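The interferon-inducible GTPases are proteins that cells make in large amounts after interferon exposure and that act inside the cell against bacteria and parasites living in vacuoles. The 9 genes followed here were Gvin5, Gbp2, Gbp3, Gbp6, Gbp7, Igtp, Irgm1, Irgm2 and Tgtp2, out of 55414 genes in the count table. These genes were chosen from the same counts with the values on both diets known, so their diet differences are given as a description, with no p-value. The data were RNA-seq counts of Paneth cells (PCs) that had been sorted by FACS out of C57BL/6J small intestine. The 4 control mice received standard chow and the 4 zinc-deficient mice a zinc-depleted chow, both freely and for 7 weeks. All mice were of the same strain with no other allele or agent named, and neither age nor sex was given. Each library came from poly(A) RNA with a stranded kit, and zinc-deficient here describes the diet, not a measured zinc level in the cells.

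Guanylate-binding proteins (GBPs) coat the vacuoles or surfaces of pathogens and open the way to inflammasome signalling. Immunity-related GTPases (IRGs) comprise effectors such as Tgtp2, which load onto parasite vacuoles, and the regulators Irgm1, Irgm2 and Igtp (also called Irgm3), which sit on the membranes of the cell itself and hold the effectors inactive there. The very large inducible GTPases (GVINs) share the GTPase fold but their function is poorly known. Transcription of GBPs and IRGs is driven by interferon gamma at GAS elements and by type I and III interferons at ISRE elements. PCs lie at the base of the crypts and secrete alpha-defensins and lysozyme, and Irgm1 has been studied in them because of its link to autophagy and granule formation.

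The libraries held 8557690 to 12648005 counts, with 13856 to 15493 genes detected. Alpha-defensin genes took 35.7 to 50.9% of the counts. The scaling factors of the trimmed mean of M-values (TMM) ran from 0.719 to 1.57, and control mouse 1 stood apart with the highest factor, the lowest defensin share and the most genes detected. Levels below are CPM (counts scaled to 1e6 per TMM-scaled library), on which 3 counts correspond to 0.162 to 0.379 CPM. The 8 Paneth markers (Lyz1, Defa24, Itln1, Mmp7, Ang4, Mptx2, Pla2g2a and Habp2) were present in every mouse, and their sum ran from 250475 to 512156 CPM on control chow and from 413847 to 717877 CPM on zinc-deficient chow. Of the 10911 genes tested between the diets with edgeR, 44 passed an adjusted p of 0.05 (0.403%), 16 of them higher in zinc-deficient mice (0.147%) and 28 lower (0.257%). In 664 of the 10911 genes (6.09%) the CPM values of the diets did not overlap. No cage, litter or batch was named in the labels.

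The GVIN genes lie on chromosome 7 and several are near copies of each other, so their letters decide which reads can be told apart. Gvin5 (ENSMUSG00000086513) was annotated as a transcribed unprocessed pseudogene of 1 exon and 7293 bases at chr7:105473430-105480722, minus strand (GRCm39). In GENCODE M39 the spans of the antisense genes Gm72549 and Gm57787 and of the same-strand gene Gm74241 overlap it. Whether strand was used in counting was not given, and without it antisense reads cannot be told apart from those of Gvin5. A stretch of 60 bases from the middle of the record is shown for Gvin5 and 6 relatives, 5′ to 3′, with capitals where a gene differs from Gvin5.
Gvin5: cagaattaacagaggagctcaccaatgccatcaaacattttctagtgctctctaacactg
Gvin-ps5: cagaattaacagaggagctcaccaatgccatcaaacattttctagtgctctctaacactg
Gvin1: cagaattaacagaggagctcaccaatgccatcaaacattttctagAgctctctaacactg
Gvin2: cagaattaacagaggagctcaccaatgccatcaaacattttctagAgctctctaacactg
Gvin3: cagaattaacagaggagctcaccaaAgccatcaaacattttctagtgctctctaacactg
Gvin4: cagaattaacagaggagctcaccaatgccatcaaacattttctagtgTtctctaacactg
Gvin-ps3: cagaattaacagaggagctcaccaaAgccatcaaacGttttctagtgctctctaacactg
These stretches lie at chr7:105477047-105477106 for Gvin5, chr7:105926225-105926284 for Gvin-ps5, chr7:105760789-105760848 for Gvin1, chr7:105549372-105549431 for Gvin2, chr7:106199564-106199623 for Gvin3, chr7:106107203-106107262 for Gvin4 and chr7:105679578-105679637 for Gvin-ps3, each on the minus strand. The stretch of Gvin-ps5 had 0 differences from that of Gvin5, those of Gvin1, Gvin2, Gvin3 and Gvin4 had 1 each and that of Gvin-ps3 had 2. Identity was also taken over the shorter transcript of each pair, aligned within the longer one. By this measure Gvin5 was 89.7% identical to Gvin1 and to Gvin2, 88.7% to Gvin-ps3 and 88.3% to Gvin3, Gvin4 and Gvin-ps5. It was 73.6% for Gvin-ps6 and 62.6% for Gvin-ps2 and Gvin-ps4. The Gvin1 and Gvin2 transcripts have 8811 and 8813 bases, so their parts beyond the length of Gvin5 are not in these values.

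Other parts of Gvin5 were its own. Of its windows of 70 bases, 60.5% occurred nowhere else in the GRCm39 genome and in no transcript of another gene, on either strand, against 1.57% for Gvin1, 1.6% for Gvin2, 20.4% for Gvin-ps3, 25.8% for Gvin4, 28.1% for Gvin-ps5 and 62.2% for Gvin3. The longest run of unique windows spanned bases 4506 to 6249 of Gvin5, 1744 bases in all. A stretch from the middle of that run is shown because its letters set Gvin5 apart from the other GVIN genes.
Gvin5 unique run: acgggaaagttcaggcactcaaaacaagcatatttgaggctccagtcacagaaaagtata
This stretch is at chr7:105475316-105475375 on the minus strand. With windows of 50 and 100 bases the unique share of Gvin5 was 55% and 65.6%. The treatment of reads that match several places was not given in the sources used here.

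Gvin5 had the most counts of the 9 genes on control chow and was lower on zinc-deficient chow in every mouse. Its level was 48.3, 44.4, 34.5 and 44.8 CPM in control mice 1 to 4 and 22.3, 16.3, 16.1 and 12.4 CPM in zinc-deficient mice 1 to 4. The counts behind these levels were 897, 542, 274 and 424 on control chow and 207, 129, 202 and 133 on zinc-deficient chow. The values of the diets did not overlap, and the lowest control mouse stood above the highest zinc-deficient mouse. The means were 43.0 ± 5.92 (SD, n = 4) and 16.8 ± 4.09 CPM (SD, n = 4), a 2.56-fold lower mean on zinc-deficient chow. The fitted log2 fold change was -1.36 with a standard error of 0.18. With each mouse left out in turn it lay between -1.53 and -1.24, and without control mouse 1 it was -1.30.

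A second record carries the Gvin5 name in the table (ENSMUSG00000109685, a transcript awaiting experimental evidence, chr7:105472471-105473013, minus strand, just downstream of the first). All of its 70-base windows were unique (100%). Its counts were 101, 57, 25 and 46 on control chow and 24, 9, 37 and 8 on zinc-deficient chow. The levels were 3.15 to 5.44 CPM in control mice and 0.748 to 2.95 CPM in zinc-deficient mice, and did not overlap, although they did overlap when libraries were scaled by their totals only. The fitted log2 fold change was -1.28 with a standard error of 0.38. This record was no part of the choice of genes but lies next to Gvin5 and carries its name, so it too is given as a description.

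Gvin-ps3, a pseudogene with sequence close to Gvin5, was the other GVIN gene with more than a few counts. Its levels were 12.9, 10.6, 6.05 and 9.52 CPM in control mice and 3.66, 6.81, 8.52 and 1.40 CPM in zinc-deficient mice. The diets overlapped, since zinc-deficient mice 2 and 3 stood above control mouse 3. The log2 fold change was -0.95 with a standard error of 0.42, which did not pass edgeR's quasi-likelihood test (adjusted p = 0.462). Gvin5 had 3.74 to 5.71 counts per count of Gvin-ps3 in control mice and 1.89 to 8.87 in zinc-deficient mice, so the ratio of these records was not fixed across mice. Gvin-ps5 had 1, 6, 3 and 0 counts on control chow and 0, 0, 5 and 0 on zinc-deficient chow. Gvin1, Gvin2, Gvin3, Gvin4, Gvin-ps2, Gvin-ps4 and Gvin-ps6 had 0 counts in all 8 mice. For Gvin1, Gvin2, Gvin-ps2 and Gvin-ps4, at most 1.99% of the windows were unique, so a count of 0 there says little about transcription, whereas Gvin3 and Gvin-ps6 had 62.2% and 91.8% of unique windows.

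**Figure D1:**
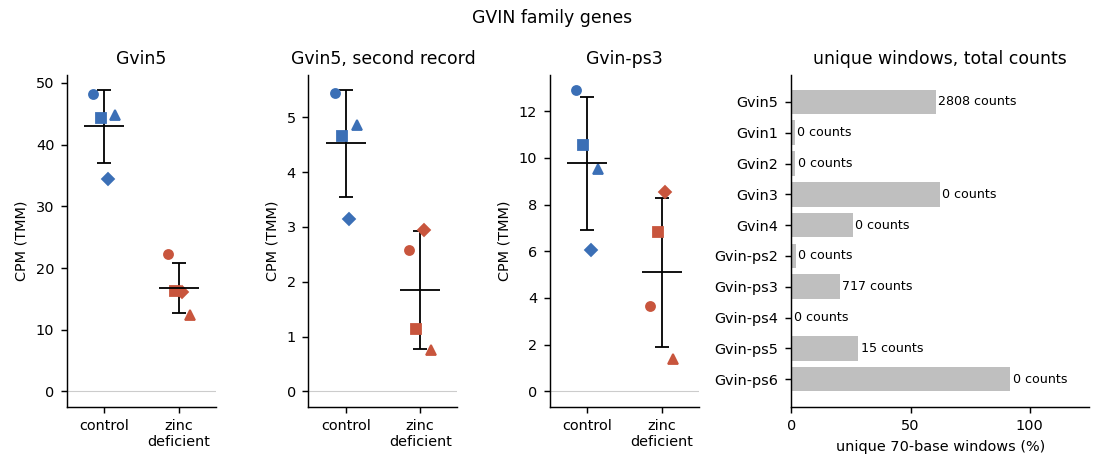
The left panels plot CPM (TMM-scaled) of Gvin5, its second record and Gvin-ps3 for each mouse (circle, square, diamond and triangle for replicates 1 to 4), with the mean and SD of 4 mice. The right panel gives the percent of 70-base windows that are unique for each GVIN gene, with its counts summed over 8 mice written beside the bar: 2808 for Gvin5, 717 for Gvin-ps3, 15 for Gvin-ps5 and 0 for the others.

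Of the 3 IRG regulators, Irgm1 had the most counts in every mouse. Irgm1 (ENSMUSG00000046879, chr11:48752795-48763164, minus strand) stood at 18.9, 19.0, 18.4 and 12.7 CPM in control mice and at 28.5, 12.5, 19.99 and 26.8 CPM in zinc-deficient mice. The diets overlapped, with zinc-deficient mouse 2 the lowest of all 8. The means were 17.3 ± 3.05 and 21.9 ± 7.29 CPM (SD, n = 4 each) and the log2 fold change was 0.35 with a standard error of 0.22. Irgm1 loss in mice is known to change Paneth cell granules.

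Igtp, the regulator found on the endoplasmic reticulum and lipid droplets, was at much lower counts. Igtp (ENSMUSG00000078853, chr11:58089840-58098417, plus strand) had 37, 15, 8 and 6 counts in control mice and 24, 16, 40 and 40 in zinc-deficient mice. The levels were 1.99, 1.23, 1.01 and 0.634 CPM on control chow and 2.59, 2.02, 3.19 and 3.74 CPM on zinc-deficient chow. The diets did not overlap, but zinc-deficient mouse 2 and control mouse 1 were nearly equal, and they overlapped when libraries were scaled by their totals only. The means were 1.22 ± 0.572 and 2.88 ± 0.743 CPM (SD, n = 4 each). The log2 fold change was 1.19 with a standard error of 0.40, and 1.57 without control mouse 1.

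Irgm2, a regulator of the Golgi apparatus, had 67, 8, 21 and 5 counts in control mice and 33, 15, 38 and 76 in zinc-deficient mice (ENSMUSG00000069874, chr11:58090444-58113615, plus strand). The levels were 3.61, 0.655, 2.65 and 0.529 CPM on control chow and 3.56, 1.89, 3.03 and 7.10 CPM on zinc-deficient chow. Control mice 1 and 3 lay within the zinc-deficient range, so the diets overlapped. The log2 fold change was 1.03 with a standard error of 0.55, 1.67 without control mouse 1 and 0.58 without zinc-deficient mouse 4. The records of Igtp and Irgm2 overlap on the same strand, so reads from the shared part cannot be assigned with certainty to either gene.

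Among the 5 genes of the rule kept by the filter on low counts, the IRG regulators varied together from mouse to mouse. After the diet means were taken out, log2(CPM + 1) of Igtp and Irgm2 had a Pearson r of 0.77 over the 8 mice, Igtp and Irgm1 of 0.65 and Irgm1 and Irgm2 of 0.64. Gvin5 had an r of 0.05 with Irgm1, -0.13 with Igtp and -0.33 with Irgm2, and of 0.81 with Gbp7. These are descriptions over 8 libraries whose genes share the same scaling, and Igtp and Irgm2 also share sequence.

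Tgtp2, an IRG effector, was near the limit of detection. Tgtp2 (ENSMUSG00000078921, chr11:48948021-48955033, minus strand) had 9, 0, 0 and 0 counts in control mice and 4, 2, 0 and 0 in zinc-deficient mice. Its neighbour Tgtp1 had 2 counts in control mouse 1 and 1 in zinc-deficient mouse 1. Over the shorter transcript, Tgtp1 and Tgtp2 differed at 7 positions (99.8% identity). They had 10.2% and 13.9% of unique windows, so the counts of either gene are uncertain.

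The 4 GBPs were low as well, and none separated the diets. Gbp3 (ENSMUSG00000028268, chr3:142265731-142278979, plus strand) had 24, 9, 3 and 0 counts in control mice and 21, 1, 11 and 6 in zinc-deficient mice. Gbp7 (ENSMUSG00000040253, chr3:142236044-142255910, plus strand) had 33, 12, 3 and 6 counts in control mice and 12, 11, 5 and 0 in zinc-deficient mice. The Gbp7 log2 fold change was -0.45 with a standard error of 0.71 and turned to 0.10 without control mouse 1, which held the highest level. Gbp7 is known to help assemble the NADPH oxidase.

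Gbp2, the best studied of the mouse GBPs, had 0, 1, 4 and 0 counts in control mice and 9, 1, 4 and 0 in zinc-deficient mice (ENSMUSG00000028270, chr3:142326349-142343779, plus strand). Gbp6 (ENSMUSG00000104713, chr5:105418568-105443751, minus strand) had 5, 0, 0 and 1 counts in control mice and 2, 6, 1 and 0 in zinc-deficient mice. Over the shorter transcript, Gbp6 was 98.5% identical to Gbp10, which had 0 counts. Only 14.8% of the Gbp6 windows were unique. Gbp2, Gbp3, Gbp6 and Tgtp2 did not pass the filter and have no fitted fold change.

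Of the 5 genes of the rule that were kept, 1 (Gvin5, lower) passed the threshold that 0.403% of all tested genes passed, and 2 (Gvin5 and Igtp) had diets that did not overlap, against 6.09% of all tested genes. Since the choice of genes used this contrast, nothing is read from these counts. The median log2 fold change of the 5 was 0.35, with 3 above and 2 below 0, beside -0.01 over all tested genes.

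**Figure D2:**
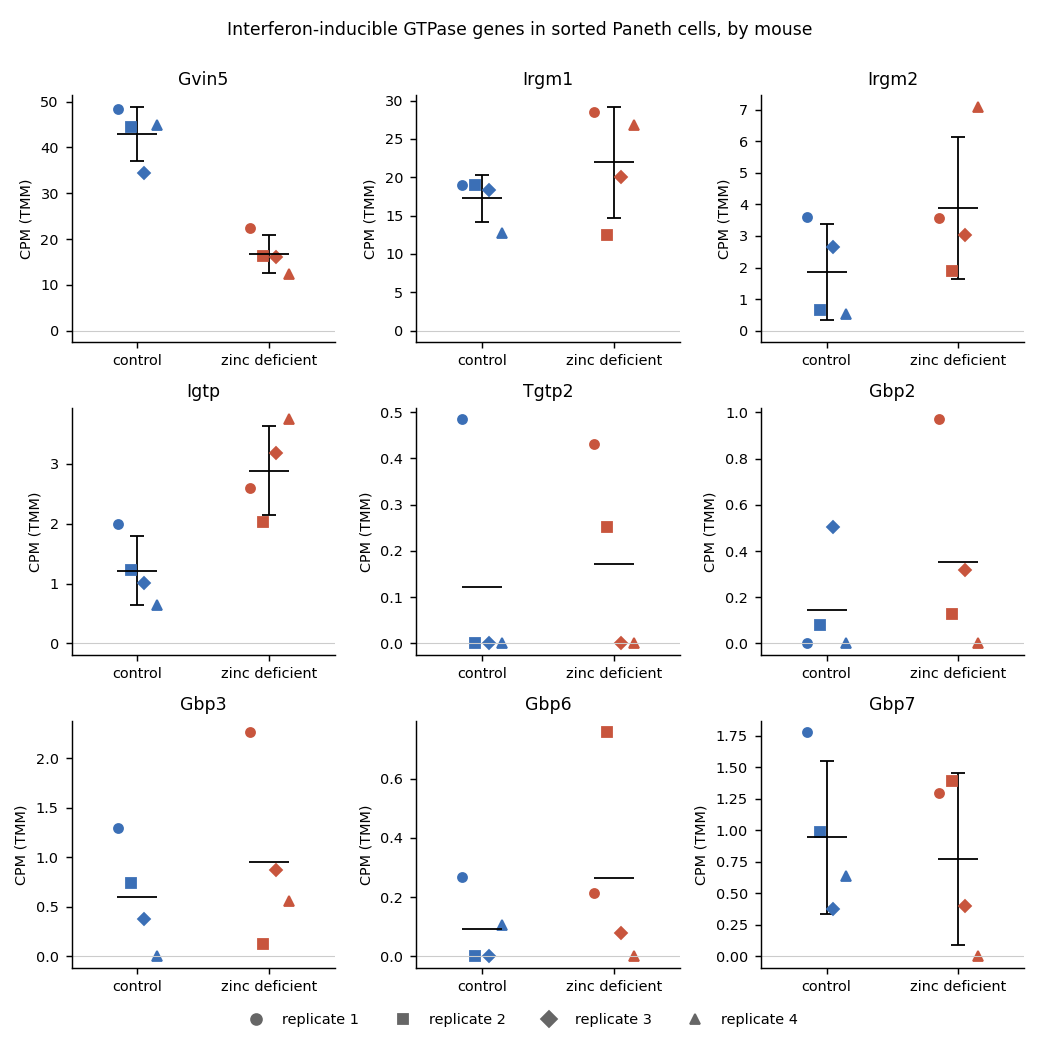
CPM (TMM-scaled) of the 9 GTPase genes in each mouse, each panel with its own axis. Horizontal marks are means of 4 mice, with SD bars for the 5 genes kept by the filter. Gvin5 lies at 34.5 to 48.3 CPM on control chow and at 12.4 to 22.3 CPM on zinc-deficient chow, Igtp is just separated in the other direction, and the other 7 genes overlap.

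On a scale per length (TPM, from counts and summed exon length), the order of the 9 genes over 8 mice was Gvin5 with 3.86, Irgm1 with 2.66, Irgm2 with 0.659, Igtp with 0.382, Gbp3 with 0.174, Gbp7 with 0.135, Gbp2 with 0.0752, Tgtp2 with 0.0506 and Gbp6 with 0.0206 TPM. Gvin5 stood above Irgm1 in 5 of 8 mice, of which 4 were control mice and 1 was zinc-deficient. The first 2 places thus did not keep their order over both diets. Irgm1 stood above Irgm2 in 8 mice, Irgm2 above Igtp in 7 and Igtp above Gbp3 in 8. The lower neighbours did not keep their order, with Gbp3 above Gbp7 in 6 mice, Gbp7 above Gbp2 in 4 and Gbp2 above Tgtp2 in 4.

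The order of the first 2 genes depended on the diet and on the length used. The per-length level of Gvin5 was 2.24 ± 0.609 times that of Irgm1 in control mice (above 1 in 4 of 4) and 0.731 ± 0.302 times in zinc-deficient mice (above 1 in 1 of 4, SD, n = 4 each). Irgm1 has 6356 bases over all exons but 2086 in its canonical transcript. With canonical lengths the ratio was 0.736 in control and 0.240 in zinc-deficient mice, and Irgm1 came first with 7.00 TPM against 3.32 TPM for Gvin5. Gvin5 made up 65.5% of the counts of the 9 genes on control chow and 34.4% on zinc-deficient chow.

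The start sites of these genes carry the letters that interferon-activated factors are known to bind. RefSeq promoter windows (GRCm38.p6, 250 bases before to 50 after the start) were at hand for 7 of the 9 genes, all but Gvin5 and Gbp6. The core of the ISRE was searched as GAAANNGAAA and the GAS element as TTCNNNGAA, on both strands. The ISRE core was in the windows of 7 of 7 genes, against 3.99% of 27025 genes in the table, and the GAS letters in 4 of 7 (Gbp7, Igtp, Irgm2 and Tgtp2), against 9.55%. Stretches of 50 bases around the ISRE core are printed for the IRG genes and Gbp2 and Gbp7, 5′ to 3′ on the gene's strand, with all matches of either motif in capitals.
Igtp: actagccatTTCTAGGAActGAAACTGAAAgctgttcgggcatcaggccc
Irgm2: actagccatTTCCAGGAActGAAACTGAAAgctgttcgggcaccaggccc
Tgtp2: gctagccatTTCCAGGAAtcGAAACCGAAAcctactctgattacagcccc
Irgm1: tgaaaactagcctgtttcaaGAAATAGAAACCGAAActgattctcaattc
Gbp2: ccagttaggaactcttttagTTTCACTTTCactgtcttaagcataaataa
Gbp7: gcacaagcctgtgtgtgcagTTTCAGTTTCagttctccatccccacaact
The stretches lie at chr11:58199502-58199551 (plus) for Igtp, chr11:58214893-58214942 (plus) for Irgm2, chr11:49064253-49064302 (minus) for Tgtp2, chr11:48871421-48871470 (minus) for Irgm1, chr3:142620584-142620633 (plus) for Gbp2 and chr3:142530263-142530312 (plus) for Gbp7, all in GRCm38.p6. In Igtp, Irgm2 and Tgtp2 the GAS letters stood directly before the ISRE core, in Igtp at positions -45 to -37 and -34 to -25 from the start site. In Irgm1 a pair of overlapping ISRE cores stood at -30 to -21 and -24 to -15. These matches are letters in a window and not measured binding.

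The other GTPases of the same families, with the dynamin-like Mx1 and Mx2 added, asked whether genes that were not chosen moved between the diets. Of 33 such genes, 23 were protein-coding and 10 were not. In these 2 groups, 14 and 3 were detected (1 count or more in any of the mice). Only 2 (Irgq and Ifi47) and 1 (Gvin-ps3) were kept by the filter and tested, so the result below covers these genes only. None passed edgeR's quasi-likelihood test, 1 (Gvin-ps3) had an unadjusted p under 0.05, as had 1142 of all 10911 genes (10.5%), and DESeq2 also called 0. Irgq, a relative known as an autophagy receptor, was at 12.0 to 17.9 CPM in control and 9.59 to 13.9 CPM in zinc-deficient mice (log2 fold change -0.34, SE 0.19, adjusted p = 0.571). Ifi47 (Irgd), an IRG effector, was at 1.88 to 3.44 CPM in control and 1.89 to 5.17 CPM in zinc-deficient mice (log2 fold change 0.24, SE 0.36, adjusted p = 0.882).

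The remaining relatives had few counts. Gm5431, an IRG tandem gene, had 2, 0, 0 and 0 counts in control mice and 1, 6, 10 and 9 in zinc-deficient mice. Its CPM values did not overlap between the diets by a narrow margin, but it did not pass the filter. Gm12250, known as Irgb10, had 13, 0, 4 and 1 counts in control mice and 7, 1, 6 and 10 in zinc-deficient mice, but none of its windows was unique (0%). Mx2, a dynamin-like antiviral GTPase, had 0, 0, 1 and 0 counts in control mice and 2, 0, 0 and 8 in zinc-deficient mice. Gbp9 had 0 to 4, Gm12185 0 to 5, Gbp4, Gbp5, Iigp1 and Mx1 0 to 2, and Gbp8, Gbp11 and F830016B08Rik 0 to 1 counts per mouse.

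The interferon signalling list held ligands, receptors, kinases, transcription factors and inhibitors, read in the sorted cells only. The ligand genes Ifng, Ifnl2, Ifnl3, Ifnb1, Ifne and Ifnk had 0 counts in all mice, which at this depth allows up to 0.162 to 0.379 CPM per mouse for counting error only. Interferon made by cells outside the sort was not measured, and the list held no Ifna gene. The receptor genes were present. Ifngr1 was at 18.9 to 23.4 CPM in control and 16.3 to 19.2 CPM in zinc-deficient mice (log2 fold change -0.34, adjusted p = 0.44), and Ifngr2 at 16.7 to 21.7 and 11.1 to 18.7 CPM (-0.33, adjusted p = 0.549). Ifnar1, Ifnar2, Ifnlr1 and Il10rb had log2 fold changes of -0.12, -0.08, -0.03 and 0.18, and none passed.

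Of the 31 signalling genes, 21 were tested. By edgeR 1 was higher in zinc-deficient mice, beside 0.147% of all tested genes, and 0 were lower. The one that rose was Irf7, a transcription factor that amplifies the type I interferon response. Its levels were 10.2, 8.68, 5.92 and 7.93 CPM in control mice and 28.8, 17.3, 18.7 and 30.6 CPM in zinc-deficient mice, with no overlap (log2 fold change 1.52, SE 0.22, adjusted p = 0.00395). Stat2 and Irf9, which act together at ISRE elements, had log2 fold changes of 0.86 (adjusted p = 0.062) and 0.66 (adjusted p = 0.221) and values that did not overlap. Of all tested genes, 6.09% did not overlap. Unadjusted p of the edgeR test was under 0.05 for 6 of the 21, beside 10.5% of all tested genes. With libraries scaled by their totals only, the diets overlapped for Irf7, Stat2 and Irf9. Irf1, which is itself induced by interferon gamma and binds the promoters of GBPs, had a log2 fold change of -0.37 (adjusted p = 0.584). The median over the 21 genes was 0.06.

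Among 32 interferon gamma targets that are no GTPase, 19 were tested and none passed by edgeR or by DESeq2. By edgeR 2 of the 19 had an unadjusted p under 0.05, beside 10.5% of all tested genes. The median log2 fold change of the 19 was 0.01. B2m, the light chain of MHC class I, was at 114 to 167 CPM in control and 128 to 159 CPM in zinc-deficient mice (0.06, adjusted p = 0.938). Cd74, the invariant chain of MHC class II, was at 76.3 CPM in control mouse 1 and at 7.40 to 17.1 CPM in the other control mice. Control mouse 1 also held the highest levels of Gvin5, Irgm2, Igtp, Tgtp2, Gbp3, Gbp6 and Gbp7 on control chow. The chemokine genes Cxcl9, Cxcl10 and Cxcl11 were at most at 0.38 CPM.

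Among 32 type I interferon-stimulated genes, 20 were tested and 4 rose in zinc-deficient mice, namely Usp18, Oasl2, Oas1a and Ifi27, while 0 fell. Over all tested genes, 0.147% passed as higher. Unadjusted p of the edgeR test was under 0.05 for 12 of the 20, beside 10.5% of all tested genes. In 7 of the 20 the diets did not overlap, beside 6.09% of all tested genes. The list was set with earlier results of these data known, so these counts are a description. Usp18, which removes ISG15 from proteins and dampens the receptor, had 0.106 CPM at the lowest and 0.7 CPM at the highest in control mice and 1.03 to 7.20 CPM in zinc-deficient mice (log2 fold change 3.02, SE 0.64, adjusted p = 0.0497). Oasl2 and Oas1a, of the family that senses double-stranded RNA, had log2 fold changes of 2.12 (SE 0.40, adjusted p = 0.0393) and 1.65 (SE 0.31, adjusted p = 0.0343). Ifi27, a mitochondrial protein induced by interferon, had a log2 fold change of 0.97 (SE 0.20, adjusted p = 0.0376). The median over the 20 genes was 0.99. The number that passed was 0 without control mouse 2, 3 or 4 or without zinc-deficient mouse 1 or 4. It was 2 without zinc-deficient mouse 2 (Oas1a and Oasl2) and 3 without control mouse 1 (Oasl1, Oasl2 and Usp18). With libraries scaled by totals only it was 0. The fold changes of the 4 named genes stayed above 0 under each of the 15 alternatives.

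The GTPase partner list held autophagy conjugation genes, galectins and inflammasome genes, with which GBPs and IRGs are known to act. Of 25 genes, 21 were tested, and none passed by edgeR or by DESeq2. By edgeR 3 of the 21 had an unadjusted p under 0.05, beside 10.5% of all tested genes. Casp4 and Gsdmd are in this list and among the interferon gamma targets. Gabarapl1 and Gabarapl2, which are tethered to membranes in autophagy, had log2 fold changes of 0.46 (adjusted p = 0.273) and 0.66 (adjusted p = 0.234). Atg5 and Atg7 had 0.33 and 0.18, and the median of the list was 0.06.

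**Figure D3:**
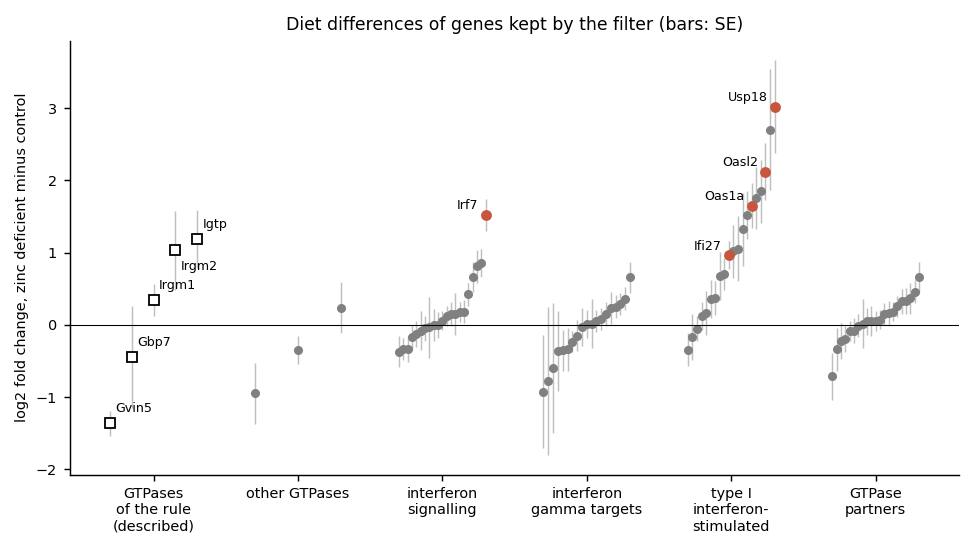
Log2 fold change (zinc-deficient minus control, bars are SE) of the genes kept by the filter in each list, sorted within a list. Open squares are the 5 GTPases of the rule, which are shown as a description whatever their p, red circles are genes with an adjusted p under 0.05 and grey circles are the other genes. Gvin5 lies at -1.36, Irf7 at 1.52 and the 4 type I genes that passed between 0.97 and 3.02.

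Markers of other cells were read beside these values. Of 30 leukocyte markers, 19 had 0 counts in every mouse, among them Cd3e, Cd3g, Cd8a, Cd4, Ms4a1, Csf1r and Adgre1. Their summed CPM, here per library total without TMM, was 25.2 to 37.3 on control and 31.9 to 52.2 on zinc-deficient chow, with means of 30.4 ± 5.08 and 39.6 ± 8.81 (SD, n = 4 each, two-sided exact permutation test over 70 assignments, p = 0.0857, the smallest possible being 0.0286). Nearly all of it was Lyz2, a gene very similar to the Paneth gene Lyz1. Without Lyz2 the sum was 0 to 2.20 and 0.272 to 4.01 CPM (exact p = 0.657). Ptprc was at most 0.378 CPM (TMM-scaled) except for 2.55 CPM in zinc-deficient mouse 3. Without Lyz2, zinc-deficient mouse 3 and control mouse 1 held the highest sums, and control mouse 1 was also highest for Cd74, H2-Aa, H2-Ab1, H2-Eb1 and Ciita. The part of these transcripts in the GTPase values was not tested.

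All 6 stem and dividing cell markers had log2 fold changes below 0. By edgeR 1 passed as lower on zinc-deficient chow, beside 0.257% of all tested genes, and 5 did not pass. An unadjusted p under 0.05 was found for 5 of the 6, beside 10.5% of all tested genes. The sum of the 6 was 1354 to 1938 CPM in control and 577 to 1135 CPM in zinc-deficient mice. The exact permutation p was 0.0286, the smallest possible, both on this scale and per library total. Most of this sum was Olfm4, with means of 1343 and 692 CPM. The marker that passed was Top2a, a DNA topoisomerase of dividing cells (log2 fold change -1.18, SE 0.21, adjusted p = 0.0229). Lgr5 and Olfm4 had values that did not overlap (-0.51 and -0.96, adjusted p = 0.337 and 0.108), while Mki67, Ascl2 and Smoc2 overlapped (-0.86, -0.78 and -0.10, adjusted p = 0.153, 0.286 and 0.869). The part of these markers in the Gvin5 difference was not tested, and in bulk samples fewer cells of a type and less RNA per cell cannot be told apart. Enteroendocrine markers summed to 20.8 to 40.7 and 15.7 to 40.4 CPM, which overlapped, but to 29.4 to 47.3 and 13.3 to 29.0 CPM per library total, which did not (exact permutation p = 0.0286, the smallest possible). Of these 6 markers 3 were tested, 1 with a log2 fold change above 0 and 2 below, and none passed edgeR's test. Chga, a granule protein of these cells and 1 of the 2 below 0, had a log2 fold change of -1.64 (SE 0.75, adjusted p = 0.481). On the TMM scale, enterocyte markers summed to 35.1 to 184 and 31.3 to 159 CPM, goblet markers to 1506 to 3082 and 2069 to 5042 CPM and tuft markers to 35.9 to 89.4 and 19.2 to 350 CPM, the highest tuft sum in zinc-deficient mouse 3. Of 8 endothelial and stromal markers, 6 had 0 counts in every mouse.

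**Figure D4:**
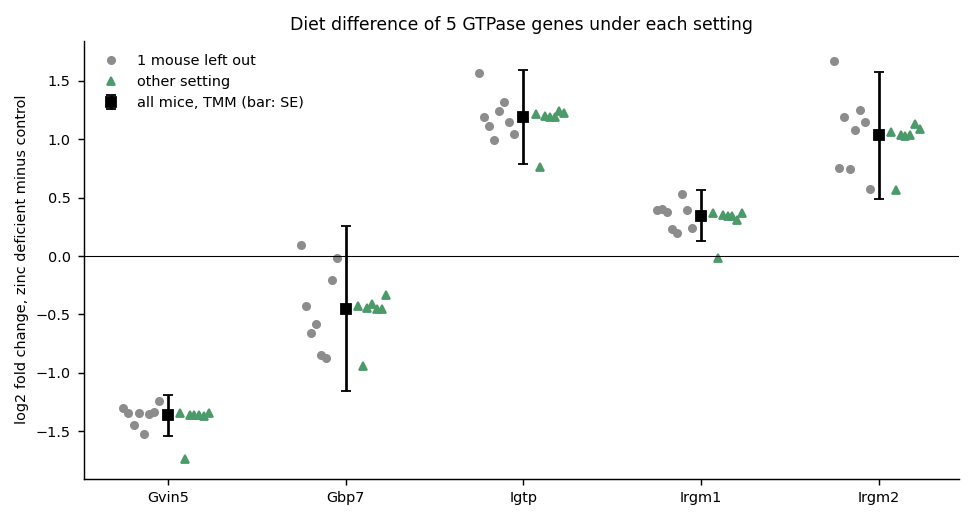
Log2 fold change (zinc-deficient minus control) of the 5 GTPase genes kept by the filter with all mice (black square, bar is SE), with 1 mouse left out (grey circles) and under the other settings (green triangles). Gvin5 stays between -1.74 and -1.24, Igtp and Irgm2 stay above 0, and Gbp7 and Irgm1 each cross 0 once, at 0.10 without control mouse 1 and at -0.02 with libraries scaled by their totals.

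By the likeness rule, the genes outside the families whose log2(CPM + 1) was most like the mean z-score of the 5 kept GTPases over the 8 mice were Elac2, Ppp1r10, Nfyc, Sidt2, Cdc25a, Gatad2a, Ascc2, 9230112E08Rik, Nfxl1 and Nxf7. Pearson r ran from 0.92 to 0.97 and was 0.92 to 0.96 after the diet means were taken out. With 10911 genes over 8 libraries that share their scaling, these values are given as a description. The mean joins genes that did not move together. Over the 8 mice Gvin5 had an r of -0.80 with Igtp, -0.62 with Irgm2, -0.33 with Irgm1 and 0.44 with Gbp7. Igtp, Irgm1 and Irgm2 had 0.65 to 0.82 with each other and -0.31 to -0.20 with Gbp7. The listed genes therefore need not follow any single GTPase. Their log2 fold changes were 0.05 to 0.82, beside -1.36 for Gvin5 and 1.19 for Igtp. For Gvin5 alone, a pattern added after the values were seen, the first were Esrrg, Add3, Cps1, Clca4b and Mcm6. They were ordered by r over the 8 mice (0.98 to 0.99), which includes the diet difference known when Gvin5 was chosen. Their log2 fold changes were -1.31 to -0.88. After the diet means were taken out, r was 0.92, 0.94, 0.82, 0.88 and 0.90. Mcm6, which encodes a subunit of the replicative helicase, had a log2 fold change of -0.88.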

How the data were processed

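RNA of FACS-sorted Paneth cells from 4 control and 4 zinc-deficient mice was sequenced after a stranded mRNA library preparation. The deposited table held raw counts per gene, made by the authors and not normalized. The submitters' processing notes name FastQC 0.12.0, STAR 2.7.0a, DESeq2 and the build mm39. The counting program, strand setting and treatment of reads with several matches were not given in the sources used here.

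Of 55414 identifiers, 54749 were found in GENCODE M39, which gave symbols, lengths and GRCm39 positions. Where identifiers shared a symbol, the one with most counts took it. The members and gene lists were chosen with earlier results of these data known. Diets were compared over all 8 mice with edgeR 4.0.16 (R 4.3.3, TMM, filterByExpr, robust quasi-likelihood test, Benjamini-Hochberg, threshold 0.05) on the 10911 genes kept, and with DESeq2 1.42.0 as an alternative. Each standard error of a log2 fold change was its absolute value divided by the square root of the quasi-likelihood F statistic. It is thus an approximate error that holds the same information as that F, also for the members, where it is a description. The test was checked on simulated data. Marker sums were compared with an exact permutation test (scipy 1.17.1). Named genes were all members, relatives with a count, ligands, receptors and genes called in the pathway lists, and the 10 most alike, and other listed genes shown as examples were picked after their values were seen. Alternatives were other scalings, no filter, no robust option, a replicate block and each mouse left out. Same-numbered mice of the diets correlated at 0.0048 to 0.114 in their deviations, so they were not paired. No pair of libraries agreed within counting noise. Intervals and limits cover counting error only. Unique windows were counted against the GRCm39 genome and the GENCODE M39 transcripts on both strands, and motifs in the RefSeq promoter table.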

Additional observations from a re-analysis of the deposited data

Results flagged for a closer look

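Among 36 sets of 4 mice examined, 4 held a mouse far from the others by Dixon's criterion, which chance gives in about 1 of 20 sets. Irgm1 in control mouse 4 was at 12.7 CPM, below the other control mice. Ifi47 in control mouse 2 was at 1.88 CPM, below the others. Gbp2 in control mouse 3 was at 0.504 CPM, above the others, from 4 counts. Tgtp2 in control mouse 1 was at 0.484 CPM, from 9 counts, with 0 in the other control mice.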

How the results depend on the processing

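The genes that passed between the diets numbered 44 in all, 11 with libraries scaled by totals only, 251 without the filter on low counts, 25 without the robust option, 134 with DESeq2 (61 higher) and 8 to 36 with 1 mouse left out (8 without control mouse 2 or 4, 13 without zinc-deficient mouse 2, 17 without zinc-deficient mouse 4). Interferon signalling gave 1 gene, but 0 with totals only, 3 without the filter, and 2 with DESeq2 and with the replicate block (Irf7 and Stat2). Type I genes numbered 4, but 0 with totals only, 9 without the filter, 2 without the robust option, 8 with DESeq2 and 0 to 4 with 1 mouse left out. Without the filter, 1 relative (Gvin-ps3) and 1 partner gene (Gabarapl2) passed. With the replicate block 53 genes passed, 24 of them higher, and no other count moved by over 1.5 times. The cause of these changes was not tested. Scaling by totals shifted the median log2 fold change of all genes by -0.36. Relative to the median of that setting, Gvin5 was at -1.37, Irgm1 at 0.35, Ifi47 at 0.24 and Igtp at 1.13. The ratio of Gvin5 to Irgm1 per length over 8 mice was 1.49, and 0.488 with canonical transcripts. The leukocyte sum difference of 9.15 CPM was 4.93 to 11.7 with 1 mouse left out. The likeness list shared 10 and 9 of its 10 genes at pseudocounts of 0.5 and 5. Low counts limit what can be said of Gbp2, Gbp3, Gbp6, Gbp7 and Tgtp2.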
